A study of Mus musculus with 93 samples.

Results

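Notch receptors, their ligands, a Notch-modifying enzyme and the best known Notch target genes were followed in the RNA of mouse first and second heart field progenitors. The genes were given as a list of names, Notch1, Notch2, Notch3, Dll1, Dll3, Jag1, Hes1, Hey1, Hey2 and Lfng, and all 10 were found among the 24514 genes of the count table. RNA-sequencing covered 93 libraries, each made from 10 sorted cells. GFP+ and RFP+ cells came either from dissected mouse embryos or from cardiac spheroids grown from embryonic stem cells (ESCs). Every embryo and the ESC line carried the same alleles, Hcn4-GFP, Tbx1-Cre and the Ai9 reporter. Hcn4-GFP marks the first heart field while Hcn4 is expressed. Tbx1-Cre with Ai9 gives lasting RFP to cells that expressed Tbx1 and to their descendants, so RFP stands for a lineage of the second heart field and not for present Tbx1 expression.

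The embryo groups held 5 GFP+ and 4 RFP+ libraries, and the spheroid groups held 38 GFP+ and 46 RFP+ libraries taken at day 5.5. Sample titles place the embryos at E8.5, whereas the study's methods place them at E7.75. The spheroids came from a single ESC line derived from these mice. Neither embryos nor differentiations were tied to wells, so each p-value measures only the spread between wells, which may be technical. Spheroid RFP+ libraries stood in plate columns 1 to 6, spheroid GFP+ libraries in columns 7 to 11 and embryo libraries in columns 11 and 12. Population and plate column therefore cannot be told apart in spheroids, and within a population neither can source and plate column. Embryo GFP+ libraries stood in plate rows A to E and embryo RFP+ libraries in rows F to H. Population and plate row thus cannot be told apart in the embryo.

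In Notch signaling, a ligand of the Delta-like or Jagged family on the surface of a cell binds a Notch receptor on its neighbor. The receptor is cut, and its intracellular part enters the nucleus, joins the DNA-binding protein Rbpj and switches on repressors of the Hes and Hey families. The pathway is known for roles in endocardium, valve and ventricle formation in the heart, and for the segmentation clock of paraxial mesoderm, which uses Dll1, Dll3, Lfng and Hes genes.

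Promoter windows of 250 bases before a transcription start were read from RefSeq for GRCm38.p6. The table held windows for 8 of the 10 members, 9 windows in all, with 2 starts for Dll1. Hes1 and Hey1 were not among them. Both strands were searched for the Rbpj core TGGGAA, for the E-box CACGTG bound by Hes and Hey proteins and for the T-box motif TCACACC. Lfng and Hey2, themselves known targets of the pathway, were the 2 members with a match. Their windows are shown with the matches in capitals, next to those of Dll3, the ligand with the largest spheroid log2 fold change toward RFP+ cells, and of Jag1, the member with the smallest embryo p, which was not called (adjusted p = 0.107, edgeR). The Lfng window lies at chr5:140607091-140607340 on the plus strand, Hey2 at chr10:30842784-30843033, Dll3 at chr7:28301786-28302035 and Jag1 at chr2:137116521-137116770, the last 3 on the minus strand.
Lfng: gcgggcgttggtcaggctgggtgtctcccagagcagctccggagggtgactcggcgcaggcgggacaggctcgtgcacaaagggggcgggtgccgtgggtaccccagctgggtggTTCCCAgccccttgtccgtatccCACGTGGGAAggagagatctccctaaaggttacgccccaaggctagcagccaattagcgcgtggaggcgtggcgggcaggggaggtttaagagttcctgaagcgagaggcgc
Hey2: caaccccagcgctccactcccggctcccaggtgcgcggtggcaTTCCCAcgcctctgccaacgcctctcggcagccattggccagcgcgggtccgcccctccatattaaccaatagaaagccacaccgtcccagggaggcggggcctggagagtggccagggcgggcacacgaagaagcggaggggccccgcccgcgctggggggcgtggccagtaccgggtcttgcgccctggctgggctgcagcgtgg
Dll3: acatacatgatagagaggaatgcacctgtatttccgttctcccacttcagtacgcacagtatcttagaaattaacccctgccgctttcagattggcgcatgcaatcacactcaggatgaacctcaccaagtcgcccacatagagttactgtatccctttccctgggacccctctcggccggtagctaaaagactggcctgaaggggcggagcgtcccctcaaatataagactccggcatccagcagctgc
Jag1: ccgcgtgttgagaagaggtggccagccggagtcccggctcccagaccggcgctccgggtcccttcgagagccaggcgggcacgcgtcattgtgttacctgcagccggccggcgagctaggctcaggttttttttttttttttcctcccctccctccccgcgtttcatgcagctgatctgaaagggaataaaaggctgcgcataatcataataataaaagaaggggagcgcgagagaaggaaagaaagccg

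In Lfng, Rbpj cores began 135 and 108 bases before the start, on opposite strands, and an E-box began 112 bases before it and overlapped the nearer core. In Hey2, the single core began 207 bases before the start, on the strand opposite the gene. The Rbpj core was found in 21.6% of all 32851 windows of this length in the table, the E-box in 6.02% and the T-box motif in 3.33%. The windows of Dll1, Dll3, Jag1 and the 3 receptors held none of these motifs. A match is a description of the sequence and not evidence of binding.

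Total counts ran from 712732 to 2525460 in embryo GFP+ libraries, from 1246546 to 1479957 in embryo RFP+ libraries and from 445071 to 5658882 in spheroid RFP+ libraries. A spheroid GFP+ library, well C9, held 6288 counts and the next lowest 828193, so spheroid GFP+ levels are given over the other 37 libraries. Embryo GFP+ libraries had reads for 6189 to 8302 genes and embryo RFP+ libraries for 10263 to 13052. Hcn4 was read in 5 of 5 embryo GFP+ and 37 of 37 spheroid GFP+ libraries, against 1 of 4 and 18 of 46 RFP+ libraries. Tbx1 was read in 3 of 4 embryo RFP+ and 41 of 46 spheroid RFP+ libraries, against 0 of 5 and 2 of 37 GFP+ libraries. The summed level of 7 cardiomyocyte markers was 16209 to 48219 CPM (reads of a gene scaled to a common library total) in embryo GFP+ libraries, 769 to 1749 in embryo RFP+ libraries and at most 955 in spheroids. An embryo RFP+ library, well F12, held 764 CPM of the embryonic globins Hbb-bh1 and Hba-x while the other 3 held none. Of the 4 blood markers, Gata1 and Runx1 had no read in any embryo RFP+ library.

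The first comparison asked how RFP+ and GFP+ cells of the embryo differed. Of 7 members that passed the count filter, 0 were called by edgeR's quasi-likelihood test at an adjusted p under 0.1, and 1, Jag1, had an unadjusted p under 0.05. Over all genes tested, 10.1% passed, made up of 6.21% in favor of RFP+ and 3.88% in favor of GFP+ cells. DESeq2 and limma each called 2 members, where DESeq2 called 17.7% and limma 26.7% of all genes. Dll1, Dll3 and Lfng fell under the filter. Each library held few cells, and fewer cells of a type and less RNA per cell cannot be told apart in such pools.

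**Figure D1:**
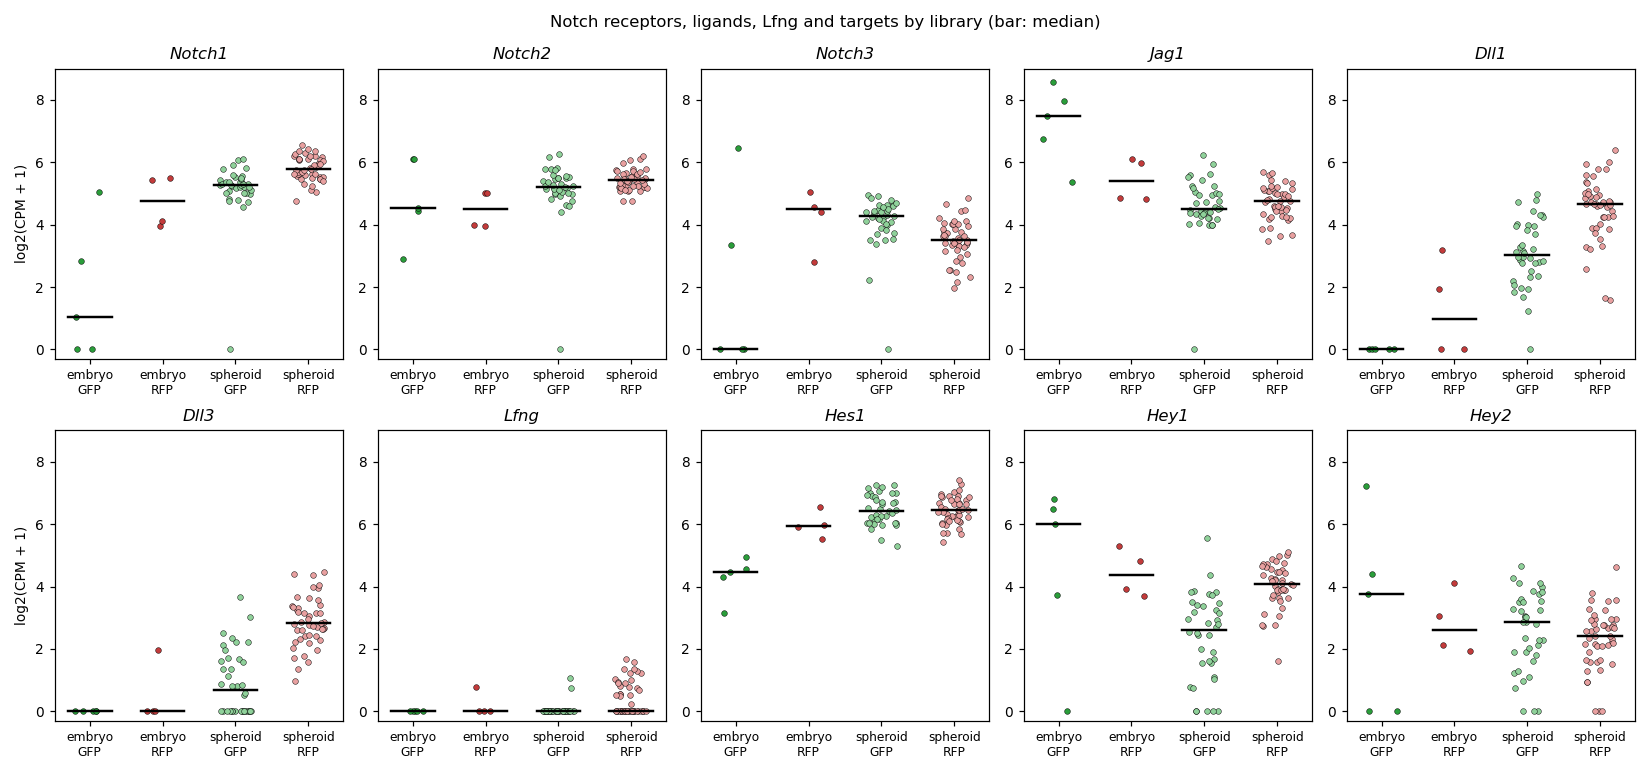
Each point is a library, placed by its log2(CPM + 1) on the vertical axis in 1 of 4 groups, and bars are group medians. Dll1 and Dll3 were highest in spheroid RFP+ libraries, with no reads in embryo GFP+ libraries.

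Notch1, the receptor used in endocardium and early mesoderm, lies on chromosome 2 from 26457903 to 26516663 (GRCm38, minus strand). In embryo GFP+ libraries it measured 1.08, 6.06, 32.2, 0 and 0 CPM in wells A12 to E12, and in RFP+ libraries 14.6, 16.2, 42.2 and 43.7 CPM. All 4 RFP+ libraries lay above 4 of the 5 GFP+ libraries, and well C12 made the ranges overlap. The log2 fold change of RFP+ over GFP+ was 1.79 ± 1.66 (SE, adjusted p = 0.76, edgeR). Limma with group weights called it at 3.47 (adjusted p = 0.0681), and the two-sided exact permutation test gave p = 0.0476. Over all genes the median log2 fold change was 1.29 in that limma fit and 0.09 in edgeR.

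Notch2, a widely expressed receptor on chromosome 3 (98013527 to 98150361, plus strand), measured 20.5, 22.1, 66.9, 67.7 and 6.42 CPM in GFP+ and 31.3, 14.8, 14.4 and 31.5 CPM in RFP+ libraries. The RFP+ values lay inside the GFP+ range, and the log2 fold change was -0.72 ± 1.19 (adjusted p = 0.91, edgeR). Notch3, the receptor best known from mural cells (chromosome 17, 32120820 to 32166852, minus strand), was at 0 in GFP+ wells A12, C12 and D12, at 9.08 CPM in B12 and at 86.6 CPM in E12. In RFP+ libraries it measured 22.6, 20.4, 5.91 and 32.2 CPM. A single GFP+ library thus carried most of the Notch3 reads of its group, and the log2 fold change was 0.00 ± 1.85 (adjusted p = 0.999, edgeR). Without well E12 it was 3.00, which did not pass either.

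Jag1, the Jagged ligand linked to outflow tract and valve development, lies on chromosome 2 from 137081456 to 137116644 on the minus strand. It measured 39.8, 105.5, 249.2, 375.4 and 176.4 CPM in embryo GFP+ libraries and 27.7, 61.8, 27.0 and 67.3 CPM in RFP+ libraries. Of 5 GFP+ libraries, 4 lay above every RFP+ library, and A12 lay within the RFP+ range. The log2 fold change was -2.09 ± 0.71 with an adjusted p of 0.107 in edgeR, just past the threshold. It passed in DESeq2 (-2.23, adjusted p = 0.0286), in limma (-1.92, adjusted p = 0.0486) and in edgeR without well A12 (-2.36, adjusted p = 0.0231) or without B12 (-2.21, adjusted p = 0.0879). The exact permutation test gave p = 0.0476, where the smallest p of the design is 0.0159. Cardiomyocyte markers moved with it, at the levels given above, and their part in the difference was not tested.

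Delta-like ligands were nearly absent from the embryo libraries. Dll1, the main activating ligand of paraxial mesoderm (chromosome 17, 15367354 to 15376872, minus strand), had 0 reads in all 5 GFP+ libraries and measured 8.01, 0, 0 and 2.87 CPM in RFP+ libraries. Dll3, a ligand that acts inside the cell and does not activate Notch in neighbors (chromosome 7, 28293553 to 28302238, minus strand), had 0 reads in GFP+ libraries and 4 reads, 2.91 CPM, in RFP+ well F12 alone. Lfng, the glycosyltransferase that changes which ligands a receptor answers to (chromosome 5, 140607320 to 140615545, plus strand), had 1 read in the same well and 0 elsewhere. A count of 0 in the 5 GFP+ libraries allows up to 2.57 CPM on average, taking 3 reads per library as the limit, and such limits cover counting error only. Differences of these 3 genes between embryo populations were not detectable at this depth.

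Hes1, the repressor that answers to Notch in many tissues, was the member whose embryo populations did not overlap, 1 of 7 tested, and it was not called. The embryo groups did not overlap in 17.3% of all genes tested. It lies on chromosome 16 from 30064384 to 30067796 on the plus strand. It measured 30.1, 21.2, 18.6, 7.94 and 22.5 CPM in GFP+ and 45.2, 59.0, 61.6 and 91.7 CPM in RFP+ libraries. The exact permutation test gave p = 0.0159, the smallest p the design allows. In edgeR the log2 fold change was 1.63 ± 1.01 and did not pass (adjusted p = 0.538), and DESeq2 called it at 1.51 (adjusted p = 0.0648).

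Hey1 and Hey2, repressors known from atrial and ventricular myocardium respectively, were patchy in embryo GFP+ libraries. Hey1 (chromosome 3, 8663359 to 8667256, minus strand) measured 109.8, 0, 63.2, 12.1 and 87.7 CPM in GFP+ and 38.6, 14.1, 11.8 and 27.2 CPM in RFP+ libraries. Hey2 (chromosome 10, 30832359 to 30842801, minus strand) measured 0, 149.7, 0, 12.6 and 20.3 CPM in GFP+ and 7.29, 2.81, 3.38 and 16.5 CPM in RFP+ libraries. Well B12 had Hey2 but no Hey1 read, wells A12 and C12 had Hey1 but no Hey2 read, and wells D12 and E12 had both. Such gaps were not particular to these 2 genes. Of other pathway genes, Gxylt1, Pofut1 and Tle1 had reads in 2 of 5 embryo GFP+ libraries and Kat2b in 1, while Hes1 and Jag1 had reads in all 5. In both genes the RFP+ values lay inside the GFP+ range, and neither difference passed in edgeR, with log2 fold changes of -1.30 ± 1.44 (adjusted p = 0.826) for Hey1 and -2.30 ± 1.85 (adjusted p = 0.705) for Hey2.

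In spheroids, 4 of the 7 members that passed the filter were called, 3 higher in RFP+ cells (Dll1, Hey1 and Notch1) and 1 higher in GFP+ cells (Notch3). That share of 57.1% lay below the 77.9% of all genes called, split into 37.8% toward RFP+ and 40.1% toward GFP+ libraries. With so many genes called, a call alone does not set a member apart, and the sizes and ranges follow. Dll3, Hey2 and Lfng fell under the filter. The median log2 fold change was 0.11 over the 7 members and -0.02 over all genes tested.

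**Figure D2:**
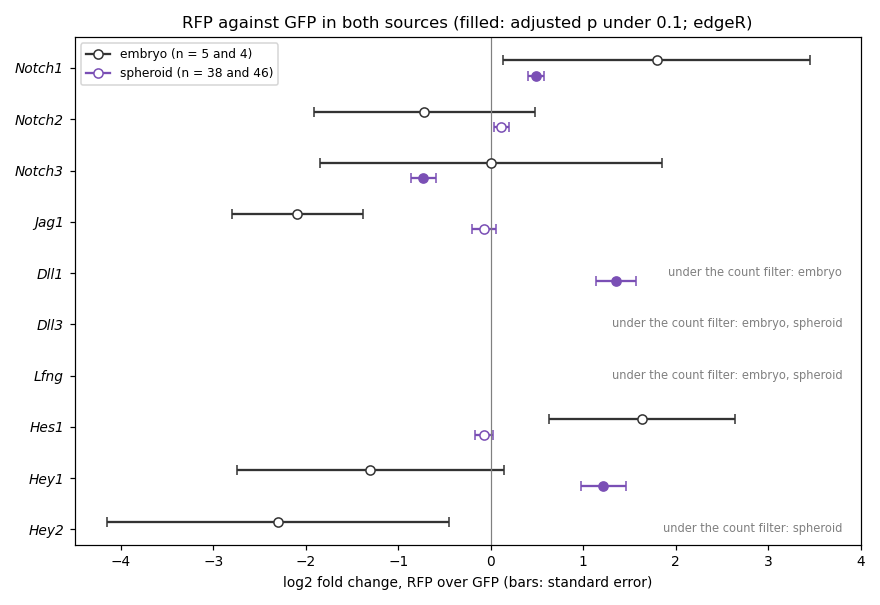
Points are log2 fold changes of RFP+ over GFP+ cells from edgeR, bars are standard errors, and filled points passed an adjusted p under 0.1. No embryo value was called, Jag1 lay at -2.09 in the embryo and -0.07 in spheroids, and Dll1, Hey1, Notch1 and Notch3 were called in spheroids.

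Dll1 ranged from 1.35 to 30.3 CPM (median 7.47) over 37 spheroid GFP+ libraries and from 1.99 to 82.4 CPM (median 24.3) over 46 RFP+ libraries. Its ranges overlapped while the medians lay apart, and the log2 fold change was 1.35 ± 0.21 (adjusted p = 1.92e-08, edgeR). Dll3 ranged from 0 to 11.6 CPM (median 0.748) in GFP+ and from 0.979 to 21.0 CPM (median 6.08) in RFP+ libraries, with reads in 21 of 37 and 46 of 46 libraries. Without the count filter, edgeR gave Dll3 a log2 fold change of 2.25 ± 0.33 (adjusted p = 4.28e-09), and DESeq2 gave 2.22. Jag1 did not follow them, with 14.7 to 73.3 CPM (median 22.2) in GFP+ and 10.1 to 50.2 CPM (median 26.0) in RFP+ libraries and a log2 fold change of -0.07 ± 0.13 (adjusted p = 0.619, edgeR).

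Lfng was read in 2 of 37 spheroid GFP+ and 22 of 46 RFP+ libraries, at most 1 read per GFP+ library and 5 reads per RFP+ library. Its highest level was 1.11 CPM in GFP+ and 2.16 CPM in RFP+ libraries, so the gene stayed near the limit of detection in both populations. The permutation test with 100000 resamples gave p = 4.00e-05, and edgeR without the filter gave an adjusted p of 2.12e-07.

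Markers of paraxial mesoderm and somite separated the spheroid populations too. The sum of 7 such markers was 76.8 to 189 CPM in RFP+ and 3.9 to 52.8 CPM in GFP+ libraries, without overlap, and all 7 had reads in both. Mesp2 went the other way from the sum, with a median of 4.21 CPM in GFP+ and 2.06 CPM in RFP+ libraries. In the embryo the sum was 26.7 to 91.2 CPM in RFP+ libraries, with Tbx6, Mesp2 and Ripply2 at 0, and 0 in GFP+ libraries. Endothelial and endocardial markers (9 genes) summed to 5.7 to 152 CPM in spheroid RFP+ and 3.85 to 50.4 CPM in GFP+ libraries. By median, Kdr (0.331 CPM in GFP+ and 13.7 CPM in RFP+ libraries) and Etv2 (0.777 and 5.43) went with this sum. Pecam1 (1.98 and 0), Tek (4.15 and 1.11) and Nfatc1 (6.59 and 4.50) went the other way. Pluripotency markers (5 genes) summed to a median of 36.3 CPM in RFP+ and 149 CPM in GFP+ libraries, while Tdgf1 went the other way (3.60 in GFP+ and 8.04 in RFP+ libraries). In the embryo the endothelial and endocardial sum was 60.8 to 380 CPM in RFP+ and 0 to 89.3 CPM in GFP+ libraries. Pecam1, Cdh5, Tie1, Emcn, Nfatc1 and Sox18 were at 0 in embryo GFP+ libraries. Tek went the other way by mean (29.8 CPM in embryo GFP+ and 14.7 CPM in embryo RFP+ libraries). The part of cells with such markers in the differences of Dll1, Dll3, Lfng, Hey1 and Notch3, and in the embryo values of Notch1 and Hes1, was not tested.

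Among receptors, Notch1 ranged from 22.7 to 67.6 CPM (median 37.7) in spheroid GFP+ and from 25.8 to 93.5 CPM (median 53.5) in RFP+ libraries. The ranges overlapped widely, and the log2 fold change was 0.48 ± 0.09 (adjusted p = 4.95e-07, edgeR). Notch3 went the other way, with 3.69 to 29.9 CPM (median 18.5) in GFP+ and 2.88 to 27.99 CPM (median 10.4) in RFP+ libraries and a log2 fold change of -0.73 ± 0.14 (adjusted p = 1.52e-06, edgeR). Notch2 had medians of 36.5 and 41.6 CPM in GFP+ and RFP+ libraries and a log2 fold change of 0.11 ± 0.08 that did not pass (adjusted p = 0.213, edgeR). Without the count filter (0.17, adjusted p = 0.0721) and in limma (0.16, adjusted p = 0.0578) Notch2 passed.

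Of the targets, Hey1 alone was called. It ranged from 0 to 46.5 CPM (median 5.51) in spheroid GFP+ and from 2.07 to 33.5 CPM (median 16.1) in RFP+ libraries. Reads were present in 33 of 37 and 46 of 46 libraries, and its log2 fold change was 1.22 ± 0.24 (adjusted p = 4.26e-06, edgeR). Hes1 had medians of 86.4 and 85.9 CPM in GFP+ and RFP+ libraries, and the log2 fold change of -0.08 ± 0.10 did not pass (adjusted p = 0.477, edgeR). Hey2 had medians of 6.32 CPM in GFP+ and 4.35 CPM in RFP+ libraries. It passed in DESeq2 (-0.59, adjusted p = 0.0407) and in edgeR without well C9 (-0.57, adjusted p = 0.0459), and did not pass in edgeR without the filter (-0.52, adjusted p = 0.102).

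Whether the population difference itself differed between embryo and spheroid was tested in limma, as the spheroid RFP+ over GFP+ log2 fold change minus that of the embryo. Of 9 members tested, 1 was called, Jag1, against 11.2% of all genes. The Jag1 difference was 1.86 ± 0.58 (adjusted p = 0.0337), and it did not pass without embryo GFP+ well D12, its highest library (1.37, adjusted p = 0.222). Across all genes the median of this difference was -1.59, so the Jag1 value had the opposite sign to that of the median gene. Hes1 (-1.89 ± 1.18, adjusted p = 0.319) and Notch1 (-3.23 ± 1.74, adjusted p = 0.246) did not pass. A joint edgeR fit, which called 54.4% of all genes, called 6 members, Hes1 among them at -1.75 (adjusted p = 1.82e-05), in a fit that uses a single dispersion per gene for all 4 groups.

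Spheroid and embryo cells of the same population were compared next. These comparisons reuse the libraries of the population comparisons. In GFP+ cells, 6 of 8 members tested were called, against 68% of all genes, 3 higher in spheroids and 3 higher in embryos. In RFP+ cells, 7 of 9 were called, against 42.6% of all genes, 5 higher in spheroids and 2 higher in embryos. The median log2 fold change of spheroid over embryo was 0.67 over all genes in GFP+ cells with TMM normalization and 0.22 with DESeq2 size factors, which put 5710 up and 2326 down against 4687 up and 3473 down. In the embryo comparison the same change of scaling moved the median from 0.09 to -0.04. In limma the median over all genes was 2.05 in GFP+ cells, 0.12 in RFP+ cells and 1.29 in the embryo comparison. Limma called 3 members in GFP+ cells (Notch1, Jag1 and Hes1), where it called 19.4% of all genes, and 2 in RFP+ cells (Notch1 and Notch2), where it called 19.1%. The calls of Dll1, Hey1 and Hey2 in GFP+ cells and of Notch3, Dll1, Dll3, Jag1 and Hes1 in RFP+ cells were thus lost in limma.

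Jag1 and Hey1 were the members higher in embryo than in spheroid GFP+ cells whichever single embryo library was left out. Jag1 gave a log2 fold change of -2.61 ± 0.27 (adjusted p = 8.24e-12, edgeR) in GFP+ and -0.78 ± 0.26 (adjusted p = 0.0153) in RFP+ cells, and the latter did not pass without well G11 or H11. Hey1 gave -2.76 ± 0.60 (adjusted p = 9.12e-05, edgeR) in GFP+ cells, where limma did not call it (-0.89, adjusted p = 0.647), and -0.46 ± 0.34 (adjusted p = 0.294) in RFP+ cells. Hey2 gave -2.22 ± 0.59 (adjusted p = 0.00107, edgeR) in GFP+ cells, and this rested on well B12, without which it was -0.05 (adjusted p = 0.955). In RFP+ cells Hey2 gave -0.60 ± 0.58 (adjusted p = 0.448).

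Hes1 rose in spheroids most clearly in GFP+ cells. It measured 38.3 to 151 CPM in 37 spheroid GFP+ libraries and 7.94 to 30.1 CPM in 5 embryo GFP+ libraries. The share of all genes without overlap in this comparison was not counted, and 68% of all genes were called. The log2 fold change of Hes1 was 2.38 ± 0.31 (adjusted p = 5.29e-09, edgeR). In RFP+ cells it was 0.47 ± 0.22 (adjusted p = 0.0995), a call lost in 9 of 12 alternatives. Notch1 was higher in spheroids in both populations, by a log2 fold change of 2.57 ± 0.50 (adjusted p = 1.80e-05, edgeR) in GFP+ and 0.94 ± 0.24 (adjusted p = 0.0016) in RFP+ cells. Notch2 gave 0.25 ± 0.30 in GFP+ cells (adjusted p = 0.487, edgeR) and 0.89 ± 0.21 (adjusted p = 0.000675) in RFP+ cells. Notch3 gave 0.11 ± 0.53 in GFP+ cells (adjusted p = 0.872, edgeR), but 2.81 (adjusted p = 3.77e-05) without well E12. In RFP+ cells Notch3 was lower in spheroids at -0.86 ± 0.34 (adjusted p = 0.0404), lost without F12 or H11.

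Delta-like ligands were read mainly in spheroids. Against the limit of 3 reads per embryo GFP+ library, which covers counting error only, mean Dll1 was at least 3.94-fold higher in spheroid GFP+ libraries. Embryo GFP+ libraries had reads for 6189 to 8302 genes and the 37 spheroid GFP+ libraries for 12837 to 14671. For Dll1 in GFP+ cells, edgeR gave an adjusted p of 1.46e-07, and limma did not call it (adjusted p = 0.341). Dll1 in GFP+ cells and Dll3 in RFP+ cells passed the count filter through spheroid libraries alone, so their edgeR p-values are no independent support. In RFP+ cells the log2 fold change was 3.21 ± 0.69 for Dll1 (adjusted p = 0.000171, edgeR) and 3.18 ± 0.76 for Dll3 (adjusted p = 0.000641), and limma called neither (adjusted p = 0.282 and 0.109).

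The order of mean levels over the 4 groups differed by gene. Notch1, Dll1 and Dll3 ran from spheroid RFP+ over spheroid GFP+ and embryo RFP+ to embryo GFP+. For Notch1, spheroid GFP+ and embryo RFP+ libraries gave a permutation p of 0.215, or 0.0292 without well C9, so the outcome turned on that well. For Dll3 the same neighbors did not differ beyond their spread (permutation p = 0.478). The embryo populations did not differ beyond their spread in Dll1 (exact permutation p = 0.333) or Dll3 (exact permutation p = 0.889). Jag1 ran from embryo GFP+ over embryo RFP+ to spheroid GFP+ and RFP+, and the last neighbors did not differ (permutation p = 0.527). Hes1 was highest in both spheroid groups (permutation p = 0.832 between them), then in embryo RFP+ (permutation p = 0.0514 against spheroid RFP+) and lowest in embryo GFP+ libraries. For Notch2, embryo GFP+ libraries did not differ beyond their spread from embryo RFP+ (exact permutation p = 0.698) or spheroid GFP+ libraries (permutation p = 0.352). Embryo RFP+ and spheroid GFP+ libraries gave a permutation p of 0.193 for Notch2, or 0.00342 without well C9. Hey1 ran from embryo GFP+ over embryo RFP+ (exact permutation p = 0.873) and spheroid RFP+ (permutation p = 0.253) down to spheroid GFP+ cells (permutation p = 2.00e-05 against spheroid RFP+, the smallest the resamples can give), and for Hey2 no neighbors differed (permutation p from 0.27 to 0.857). Lfng neighbors did not differ either (permutation p = 0.413, 0.365 and 1), and for Notch3 the embryo populations did not (exact permutation p = 0.19). The mean of Notch3 was higher in embryo than in spheroid GFP+ libraries through well E12 alone, while on the log2 scale spheroid GFP+ libraries were higher by 2.01 (permutation p = 0.00614), or by 2.11 without well C9 (permutation p = 0.00204). These are 60 tests in all, 6 pairs for each of 10 genes, and their p-values are unadjusted.

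Levels of different genes can be set side by side per kilobase of exon. On the scale of mean CPM per kb, Jag1 was the highest member in embryo GFP+ cells at 32.5, before Hey1 at 16.7, Hes1 at 9.85 and Hey2 at 7.95. The Hey2 mean rested on well B12, without which it was 1.79 CPM per kb, below Notch2 at 3.41. Hes1 was the highest in the other 3 groups, at 31.6 in embryo RFP+, 45.5 in spheroid GFP+ and 44.1 in spheroid RFP+ cells. The leading ligand changed between spheroid populations. In GFP+ cells Jag1 stood at 4.76, Dll1 at 2.40 and Dll3 at 0.55 CPM per kb, and in RFP+ cells Dll1 stood at 6.34, Jag1 at 4.63 and Dll3 at 2.61. Receptors lay closer together, with Notch1 at 3.96, Notch2 at 4.01 and Notch3 at 1.41 in spheroid RFP+ cells.

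**Figure D3:**
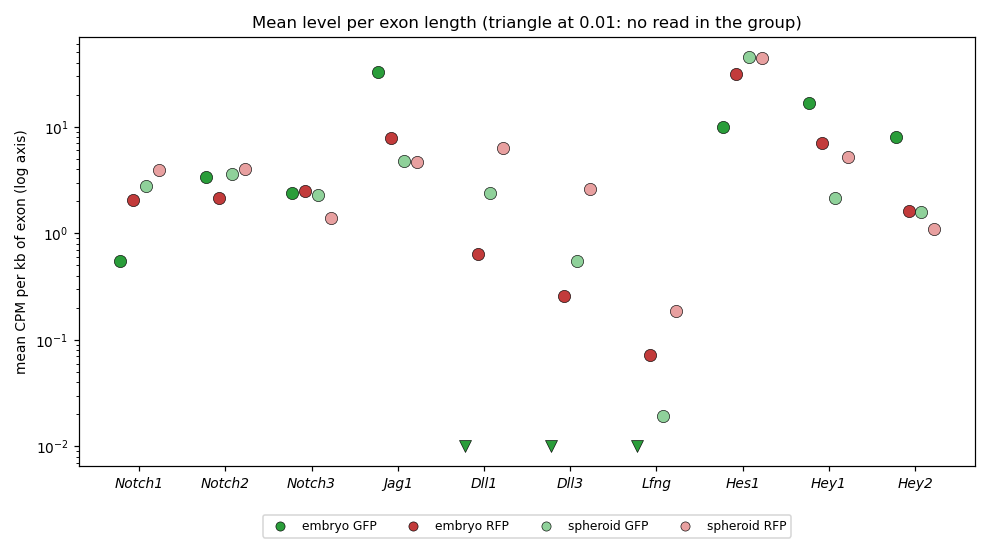
The vertical axis, on a log scale, is the mean CPM per kb of exon in each of the 4 groups, and triangles mark groups without a read. Jag1 led in embryo GFP+ cells at 32.5, Hes1 led elsewhere, and Dll1, Dll3 and Lfng had no read in embryo GFP+ cells.

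Another 67 genes of the pathway, listed by role, were counted in the same fits. In the embryo 41 passed the filter and 5 were called (12.2%), 2 with the higher level in RFP+ and 3 in GFP+ cells, close to the 10.1% of all genes. In spheroids 44 passed and 28 were called (63.6%), 15 with the higher level in RFP+ and 13 in GFP+ cells, below the 77.9% of all genes. Their median log2 fold change was -0.26 in the embryo and 0.05 in spheroids. In spheroids, the glycosylation enzymes that prepare the receptor had 3 higher in RFP+ and 0 higher in GFP+ of 5 tested, and corepressors had 6 and 2 of 10. The Rbpj complex had 3 and 4 of 9, the cleavage enzymes 2 and 3 of 8, and genes of turnover and endocytosis 1 and 4 of 10.

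The 5 pathway genes called in the embryo were also called in spheroids, where 77.9% of all genes were, and the spheroid call of Ncstn held in 4 of 10 alternatives. Rfng, a sister enzyme of Lfng, had 0 reads in embryo GFP+ libraries and 10.2, 8.43, 9.29 and 7.88 CPM in RFP+ libraries (adjusted p = 0.00649, edgeR). It passed the count filter in 6 of the 9 fits that left out a library, and was called in those 6. Against 3 reads per GFP+ library, a limit for counting error only, its RFP+ mean was at least 3.48-fold higher. In spheroids Rfng gave a log2 fold change of 0.65 ± 0.24. Maml1, a coactivator of the Notch and Rbpj complex, had 3 reads in GFP+ well A12, 0 in the other 4 and 8.44 to 27.9 CPM in RFP+ libraries. Its log2 fold change was 4.73 ± 1.55 in the embryo (adjusted p = 0.0928, edgeR) and 0.37 ± 0.12 in spheroids, and the embryo call held in 2 of 9 fits that left out a library. Rfng and Maml1 passed the count filter in the embryo through RFP+ libraries alone, so their embryo p-values are no independent support for a difference.

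Ncstn, a subunit of the gamma-secretase that releases the intracellular part of Notch, was 108.7 to 295.1 CPM in embryo GFP+ and 24.4 to 54.0 CPM in RFP+ libraries. Its groups did not overlap, as in 17.3% of all genes tested, the log2 fold change was -2.58 ± 0.52 (adjusted p = 0.00954, edgeR), and the call held in 9 of 9 fits that left out a library. In spheroids it was -0.17 ± 0.09 (adjusted p = 0.0841). Adam10, a protease that cuts the receptor, was 186 to 569 CPM in embryo GFP+ and 68.9 to 121.6 CPM in RFP+ libraries. Its log2 fold change was -1.73 ± 0.44 (adjusted p = 0.0258, edgeR), and the call was lost without well G11. In spheroids Adam10 was higher in RFP+ cells by 0.54 ± 0.07, and the difference between the sources was 2.19 ± 0.39 (adjusted p = 1.36e-05, limma). Nedd4, a ubiquitin ligase of receptor turnover, likewise gave -0.64 ± 0.19 in the embryo (adjusted p = 0.0677, edgeR), held in 3 of 9 fits that left out a library, and 0.31 ± 0.03 in spheroids, with a difference of 0.95 ± 0.17 (adjusted p = 1.37e-05, limma).

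The 3 largest rises toward RFP+ spheroid cells were those of the coactivator Maml2 (2.30 ± 0.20) and the corepressors Tle1 (0.99 ± 0.14) and Ctbp1 (0.99 ± 0.09), all as edgeR log2 fold changes. Maml2 had a median of 5.78 CPM in GFP+ and 34.0 CPM in RFP+ libraries. Toward GFP+ cells, the 3 largest were the acetyltransferase Kat2b (-2.26 ± 0.22), the gamma-secretase subunit Aph1c (-1.91 ± 0.22) and the corepressor Tle4 (-1.49 ± 0.12). Tle4 had medians of 77.2 and 29.5 CPM in GFP+ and RFP+ libraries. Aph1c shares near-identical sequence with Aph1b, so its counts are uncertain.

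**Figure D4:**
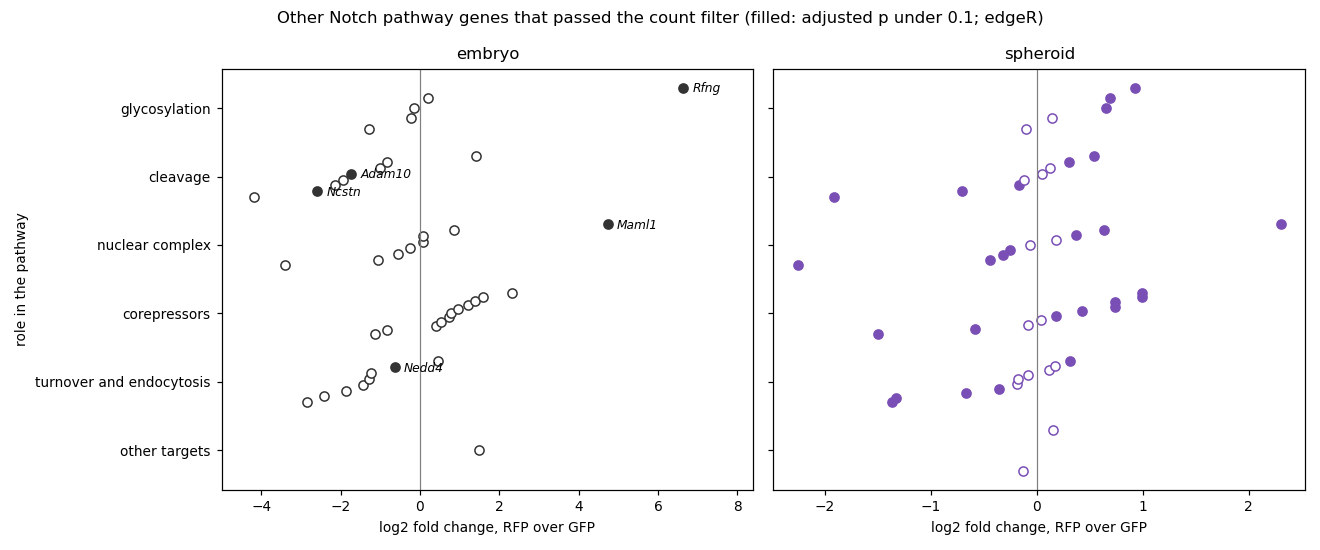
Each point is a pathway gene that passed the filter, placed by its edgeR log2 fold change of RFP+ over GFP+ on the horizontal axis and by role on the vertical axis, and filled points passed an adjusted p under 0.1. The embryo panel has 5 filled points of 41 and the spheroid panel 28 of 44, in both directions.

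Other ligands and receptors of the list, Mfng and some targets and clock genes stayed under the filter in these comparisons. They are given as values and were not chosen by a fixed rule. Jag2 had a median of 8.86 CPM in spheroid GFP+ and 0 CPM in RFP+ libraries, with reads in 36 of 37 and 21 of 46. Dll4 was read in 5 of 37 spheroid GFP+ and 14 of 46 RFP+ libraries, and Notch4 in 9 of 37 and 25 of 46. Dner was read in 18 of 37 spheroid GFP+ and 6 of 46 RFP+ libraries. The same counts were 12 of 37 and 11 of 46 for Dlk1, and 2 of 37 and 7 of 46 for Dlk2. Mfng, a sister enzyme of Lfng, was read in 27 of 37 and 28 of 46, with medians of 1.66 and 0.790 CPM. Hes7, the oscillating repressor of the segmentation clock, was read in 10 of 37 GFP+ and 40 of 46 RFP+ libraries, and Hes3 in 16 of 37 and 42 of 46. Heyl was read in 0 of 5 embryo GFP+ and 3 of 4 embryo RFP+ libraries.

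Within a population, members varied from well to well without moving together. Over 37 spheroid GFP+ libraries, Pearson correlations of log2 CPM between 9 members (without Lfng) ran from -0.34 to 0.33 over 36 pairs, and over 46 RFP+ libraries from -0.26 to 0.29. The highest in GFP+ libraries was that of Dll1 with Dll3. Among 8785 other genes, those with the pattern closest to Hes1 over 83 spheroid libraries, population means taken out, were Rps21 (r = 0.56), Atp5k (r = 0.55) and Rps28 (r = 0.53). The nearest genes of the other 8 members had r of 0.39 to 0.46, led by Strap for Hey2 and Gabpb1 for Notch1. These values describe libraries that share depth and plate, and the members are sparse counts.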

How the data were processed

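Each library came from 10 sorted cells. Per the labels and the study's methods, the authors trimmed reads with Trimmomatic 0.36 (quality 35, length 36), aligned them to mm10 with HISAT2 2.0.4 and deposited raw read counts per gene from featureCounts 1.5.2. The strand setting is not given in the sources used here. Notch1, Notch2, Notch3 and Dll1 overlap other annotated genes, and reads of antisense partners could not be separated. Coordinates and exon lengths are from GENCODE M21. The reads carry no molecular identifiers.

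The members and lists were chosen with earlier results of these data known. Fits were made in R 4.3.3. The tools were edgeR 4.0.16 (TMM, filterByExpr with minimum count 10, total 15 and proportion 0.7, quasi-likelihood test), limma 3.58.1 (voom with group weights) and DESeq2 1.42.0, with Benjamini-Hochberg adjustment over all genes tested and calls at an adjusted p under 0.1. The standard error is the log2 fold change over the square root of F. CPM uses TMM factors over 93 libraries, and single genes were tested by two-sided permutation of log2 CPM (prior count 2). Permutation tests without well C9 and the Hey2 level per kb without well B12 were chosen after seeing the data. Wells of columns 3 and 4 in a row were closer to each other (chi-square over degrees of freedom 1.37 to 2.39) than wells of columns 5 and 6 (4.23 to 7.97), but differed by more than counting noise, so they were kept apart and summed as an alternative. Named genes were the 10 members, pathway genes called in both sources, the 3 largest called per comparison and direction, and the 3 genes closest in pattern to each member. A few further pathway genes were named outside this rule, for their values only. The fits were also run on simulated counts with a single dispersion per gene for all groups, so unequal spread between groups was not covered.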

Additional observations from a re-analysis of the deposited data

Results flagged for a closer look

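Of 17 sets of member values in an embryo population with any read, 5 had a library far from the others (Dixon's test). The test flags about 1 set in 20 by chance for normally distributed values, a rate that does not hold for CPM with many zeros. A set with reads in a single library is always flagged, as were those of Dll3 and Lfng in RFP+ cells. In GFP+ cells, Notch1 reached 32.2 CPM in well C12 against at most 6.06 CPM in the other 4, Notch3 reached 86.6 CPM in E12 against at most 9.08 CPM, and Hey2 reached 149.7 CPM in B12 against at most 20.3 CPM. In RFP+ cells, well F12 alone had reads of Dll3 (2.91 CPM) and Lfng (0.729 CPM). Among embryo RFP+ libraries it was also the one with globin reads, while the blood markers Gata1 and Runx1 had none there. Wells E12 and B12 also decided the Notch3 and Hey2 values of the comparison between spheroid and embryo GFP+ cells.

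The Jag1 difference between populations was itself different between sources, by 1.86 on the log2 scale (limma), and this call was lost without embryo GFP+ well D12.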

How the results depend on the processing

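Settings changed few directions among single members. Of 491 alternative values of members, 426 kept their direction and side of the threshold, 22 lost a call, 17 gained one and 26 changed sign. The number of members called in the embryo rose from 0 to 2 with DESeq2, 1 with DESeq2 size factors, 1 with TMMwsp and 2 with limma, and ran from 0 to 1 when a library was left out. All genes called there went from 858 to 1936 with DESeq2, 874 with its size factors, 866 with TMMwsp and 2271 with limma. With a library left out they ran from 613 (RFP+ G11) to 1044 (GFP+ C12). In spheroids the number of members called rose from 4 to 7 with DESeq2 and to 7 without the filter. The share of all genes called there was 77.9% in the main fit, 65.8% with DESeq2 and 60.1% without the filter. Limma lowered it from 6 to 3 in the GFP+ and from 7 to 2 in the RFP+ source comparison. For the difference between sources, the joint edgeR fit gave 6, and leaving out a library gave 0 (GFP+ D12) to 2 (RFP+ G12). Of all genes, 54.4% were called in the joint fit, 7.62% without D12 and 13.7% without G12. Pathway genes called in the embryo went from 5 to 3 at an adjusted p under 0.05, 12 with DESeq2 and 8 without the filter. The shares of all genes called in these settings were 7.88%, 17.7% and 13.2%. With a library left out, pathway genes called ran from 1 (RFP+ G11) to 7 (GFP+ A12), being 3 without RFP+ F12 or G12. All genes called were 7.01% without G11, 11.8% without A12, 8.30% without F12 and 8.87% without G12. In spheroids, pathway genes called went from 28 to 45 without the filter, where 60.1% of all genes were called. Notch3 in the embryo was -0.16 with DESeq2, -0.16 with its size factors, -0.14 with TMMwsp, and -0.33 to 3.00 with a library left out. Hey1 in the embryo was 0.74 with limma, where the median over all genes was 1.29. In the GFP+ source comparison Notch2 was -0.22 with DESeq2, -0.23 with its size factors and -0.080 to 0.59 with a library left out, and Notch3 was -0.44 with DESeq2, -0.44 with its size factors, -0.053 with total counts and -0.25 to 2.81 with a library left out. In the RFP+ one Hey2 ran from -0.87 to 0.13 with a library left out. For the difference, Dll3 was -1.24 in the joint fit, and with a library left out Dll1 ran from -1.30 to 0.25, Hey2 from -1.17 to 1.41 and Hey1 from -0.17 to 2.76. The cause was not tested in any of these. With 5 against 4 embryo libraries, standard errors of members were 0.71 to 1.85 on the log2 scale.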
